A study of Mus musculus with 12 samples.

Results

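The 6 CXC chemokine genes Cxcl1, Cxcl2, Cxcl3, Cxcl9, Cxcl10 and Cxcl16 were described in mouse macrophages cultured with or without TGFβ and stimulated or not through TLR2. The members were fixed by gene symbol, and all 6 were found among the 40847 rows of the count table and among the 14749 genes that passed the filter on low counts. The cells were FLAMs, Fetal Liver Alveolar-Like Macrophages, which are grown from fetal liver as a model of the alveolar macrophages of the lung. All 4 groups were grown in mouse GM-CSF at 30 ng/ml, a growth factor that the unstimulated cells therefore also received. The untreated group (UNT) had no further agent. The TGF group was grown with recombinant human TGFβ1 at 20 ng/ml, the PAM group received Pam3CSK4 (Pam3), a synthetic lipopeptide that activates TLR2, at 25 ng/ml for 18 h, and the PAM_TGF group received both. Polyadenylated RNA was sequenced from 3 libraries of each group, 12 in all, to ask how TGFβ bears on the response to TLR2 activation. The labels do not say whether the libraries of a group came from separate cultures, isolations or animals, so p-values measure only the spread between these libraries. Only 1 dose of each agent and 1 time were sampled.

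CXC chemokines are small secreted proteins that direct leukocytes through G protein-coupled receptors. Cxcl1, Cxcl2 and Cxcl3 bind CXCR2 and recruit neutrophils; in macrophages their genes are classical targets of NF-κB downstream of Toll-like receptors, and their mRNAs are short-lived. Cxcl9 and Cxcl10 bind CXCR3 on activated T cells and NK cells, and their genes respond to interferons as well as to NF-κB. Cxcl16 binds CXCR6 on T cells and is made as a membrane-anchored protein that also takes up oxidised lipids until ADAM proteases release its chemokine domain.

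The DNA just upstream of Cxcl1, Cxcl2, Cxcl3 and Cxcl10, the members with the largest Pam3 responses in the presence of TGFβ, is shown first, because the motifs it holds differ between the CXCR2 ligands and Cxcl10. Cxcl1 (chr5:91039094-91040974), Cxcl2 (chr5:91051730-91053797) and Cxcl3 (chr5:90933962-90937459) lie on the plus strand of GRCm39, and Cxcl9 (chr5:92469206-92475945) and Cxcl10 (chr5:92494497-92496748) lie on the minus strand of the same chromosome. Cxcl16 (chr11:70344517-70352620) lies on the minus strand. All are annotated as protein-coding, with 4 exons in the canonical transcript and 5 for Cxcl16. Each sequence below is genomic, runs 5′ to 3′ on the strand of its gene and ends at the base before the GENCODE M39 canonical start. Capitals mark motif matches.
Cxcl1: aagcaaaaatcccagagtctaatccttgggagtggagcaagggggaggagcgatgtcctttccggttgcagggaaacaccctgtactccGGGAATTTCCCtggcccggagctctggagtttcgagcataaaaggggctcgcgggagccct
Cxcl2: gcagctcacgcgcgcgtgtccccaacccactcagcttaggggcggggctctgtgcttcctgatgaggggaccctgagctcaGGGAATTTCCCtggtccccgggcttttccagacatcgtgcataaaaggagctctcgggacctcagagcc
Cxcl3: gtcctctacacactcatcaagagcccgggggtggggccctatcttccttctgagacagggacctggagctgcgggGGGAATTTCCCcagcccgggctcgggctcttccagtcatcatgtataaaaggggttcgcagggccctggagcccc
Cxcl10: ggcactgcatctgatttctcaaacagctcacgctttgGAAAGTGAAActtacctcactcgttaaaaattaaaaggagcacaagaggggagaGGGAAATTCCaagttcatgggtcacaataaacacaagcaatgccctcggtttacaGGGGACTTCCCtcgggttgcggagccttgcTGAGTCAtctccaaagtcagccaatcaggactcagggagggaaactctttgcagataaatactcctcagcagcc
The first 3 sequences are 150 bases long (chr5:91038944-91039093, chr5:91051580-91051729 and chr5:90933812-90933961, plus strand). The Cxcl10 sequence is 250 bases long (chr5:92496749-92496998, minus strand).

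Motifs were searched on both strands in the 250 bases before the start of every member. The 11 bases GGGAATTTCCC, picked after the sequences were seen, stood 61 to 51 bases before the start of Cxcl1, 69 to 59 before that of Cxcl2 and 75 to 65 before that of Cxcl3. They hold 2 overlapping matches to the NF-κB consensus, 1 on each strand. Among 21751 promoters of protein-coding genes of the same length, 0.0506% held these 11 bases and 7.62% held the NF-κB consensus. Cxcl10 had 3 NF-κB matches, GGGAAATTCC at 159 to 150 bases before its start and the overlapping GGGGACTTCC and GGGACTTCCC at 104 to 94. It alone of the 6 also held the interferon-response element GAAANNGAAA, as GAAAGTGAAA at 213 to 204, which was present in 3.32% of promoters, and the AP-1 motif TGANTCA, as TGAGTCA at 74 to 68, present in 6.17%. Cxcl9 and Cxcl16 had no match to any of these letters within this window. The start used for Cxcl16 lies inside its annotated span. Unlike those of the other 5, it could not be checked against RefSeq, since no RefSeq promoter window was found for this gene. A match describes the letters only and is not evidence of binding in these cells.

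Library totals ran from 34036650 to 44374115 counts. Levels are given as CPM, the count rate of edgeR (counts scaled to a fixed library size) with TMM-scaled library sizes, and 3 counts, taken as the floor of detection, corresponded to 0.0678 to 0.0953 CPM. All 9 listed macrophage markers exceeded 1 CPM in every group, with a sum of 32070 to 36290 CPM in UNT, 16790 to 17710 in TGF, 35060 to 36100 in PAM and 25830 to 26500 in PAM_TGF. That sum is mostly Lyz2, with means of 29820 CPM in UNT and 15250 in TGF, and the other markers did not all follow it: Itgam had 1088 and 38.75, Mertk 223.2 and 222.2, and Fcgr1 81.14 and 91.31 CPM in these groups. Summed T cell markers were 1.175 to 1.31 CPM in PAM_TGF and at most 0.765 CPM elsewhere. In PAM_TGF the sum was mostly Lck (mean 0.923 CPM) and Trac (0.299 CPM), while Cd3e, Cd3g, Cd4 and Cd8a had 0 counts there. The 7 listed epithelial markers summed to 158.6 to 182 CPM in UNT, 391.5 to 402.8 in TGF, 142.2 to 151.1 in PAM and 256 to 265.3 in PAM_TGF, nearly all of it Cdh1, with a mean of 393.7 CPM in TGF. The part of these markers in the results was not tested. UNT replicate 3, TGF replicate 2 and PAM replicate 1 stood apart from the other libraries of their group. The share of counts in 7 rows of ribosomal and related RNA, picked after the counts were seen, was 6.19% in UNT replicate 3 against 0.288% and 0.351% in the other untreated libraries. It was 0.195% in TGF replicate 2 against 6.22% and 8.21%, and 0.238% in PAM replicate 1 against 5% and 7.8%. In PAM_TGF replicates 1, 2 and 3 it was 0.392%, 1.63% and 1.2%, so the share was not balanced over the groups. The part of this share in the results was not tested. Calls of printed values that change without these 3 libraries are named beside them. In that fit the share was at most 1.63% in all UNT and PAM_TGF libraries and at least 5% in all TGF and PAM libraries. The share and the groups cannot be told apart there, so that fit does not remove the share. In bulk RNA, fewer cells that make a transcript and less of it per cell cannot be told apart.

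Cxcl2 and Cxcl3, the more abundant CXCR2 ligands, were present in untreated cells, nearly lost with TGFβ alone, raised by Pam3 alone, and highest with Pam3 and TGFβ together. Cxcl1 had the same pattern at a far lower level, except that its level under Pam3 was not called different with TGFβ. Cxcl10 was low in all groups but PAM_TGF, where it became the most abundant of the 6 per length. Cxcl9 was close to the floor outside PAM_TGF. Cxcl16 rose with Pam3 and with TGFβ, each alone, and most with both. The plot of CPM by library shows these patterns.

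**Figure D1:**
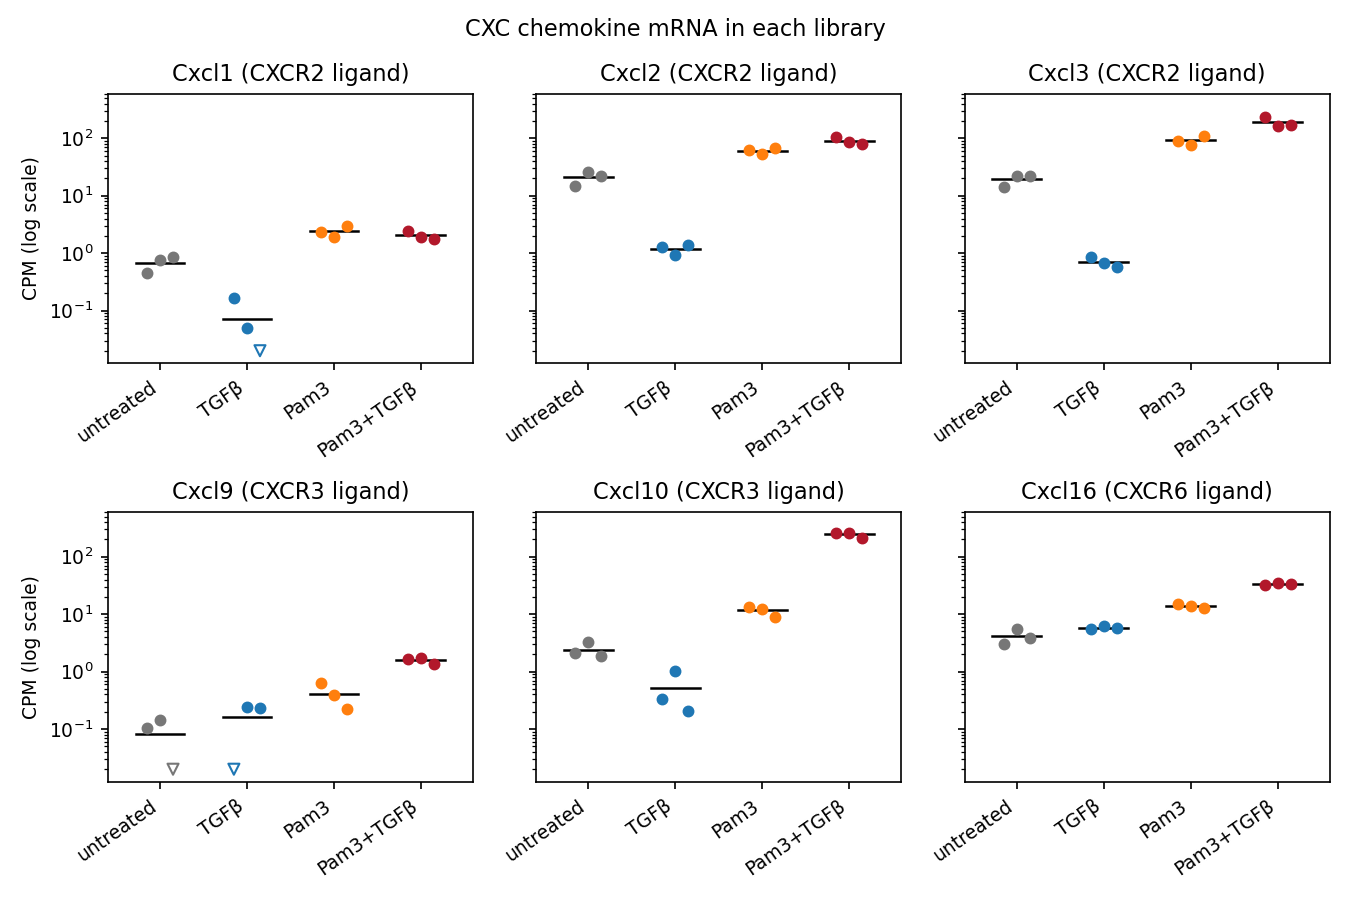
Level of each of the 6 CXC chemokine mRNAs in CPM (log axis) in the 4 groups, with 1 point per library and a bar at the mean of 3 libraries; open triangles at the bottom mark libraries with 0 counts. Cxcl2 and Cxcl3 fall with TGFβ alone, and Cxcl10 reaches 214.7 to 262.8 CPM only in the PAM_TGF libraries.

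Cxcl2, a strong neutrophil attractant made early by macrophages, had 14.6, 26.0 and 21.6 CPM in UNT replicates 1, 2 and 3, and 1.30, 0.914 and 1.39 CPM in the TGF libraries. It had 61.4, 53.2 and 66.6 CPM in PAM and 104.7, 86.9 and 79.7 CPM in PAM_TGF. The 4 groups did not overlap, in the order TGF, UNT, PAM and PAM_TGF. Pam3 without TGFβ raised Cxcl2 by 1.54 on the log2 scale (SE 0.203, 2.91-fold, adjusted p = 0.000666). With TGFβ the rise was 6.24 (SE 0.283, 75.4-fold, adjusted p = 9.54e-08), from the low starting level of the TGF group. In unstimulated cells Cxcl2 fell by 4.12 with TGFβ (SE 0.290, 17.3-fold lower, adjusted p = 1.76e-06). In Pam3-treated cells TGFβ was followed by a rise of 0.58 (SE 0.192, 1.498-fold, 95% interval 0.14 to 1.021, adjusted p = 0.0352). That small rise was not called under 5 of 12 fits that left out 1 library, PAM replicate 1 (adjusted p = 0.0766), PAM replicate 2 (0.105), PAM_TGF replicate 1 (0.101), PAM_TGF replicate 2 (0.0632) and TGF replicate 1 (0.0521), nor without the 3 libraries that stood apart (0.127). It was also not called with a replicate block (0.0736) or with unfiltered genes (0.0606).

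Cxcl3, the close relative of Cxcl2, had 13.9, 21.9 and 21.8 CPM in the 3 UNT libraries and 0.858, 0.667 and 0.576 CPM in the TGF libraries. It had 90.2, 75.9 and 109.5 CPM in PAM and 230.9, 165.1 and 167.5 CPM in PAM_TGF. No groups overlapped, and PAM_TGF replicate 1 was the highest library. The Pam3 response of Cxcl3 was 2.26 on the log2 scale without TGFβ (SE 0.225, 4.78-fold, adjusted p = 0.000135) and 8.07 with it (SE 0.338, 268-fold, adjusted p = 9.17e-08). TGFβ lowered Cxcl3 by 27.4-fold in unstimulated cells (log2 fold change -4.78, SE 0.358, adjusted p = 4.03e-06) and raised it by 2.05-fold in Pam3-treated cells (log2 fold change 1.03, SE 0.209, adjusted p = 0.00332). The coding sequences of Cxcl2 and Cxcl3 were 89.7% identical, and 61 of the 1062 windows of 50 bases in the Cxcl2 canonical transcript (5.74%) also occurred in Cxcl3. Reads from those windows could be assigned to either gene, so a small part of the likeness of their values is uncertain.

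Cxcl1, the CXCR2 ligand also known as KC, was scarce. It had 0.447, 0.746 and 0.856 CPM in UNT, and 0.166, 0.0494 and 0 CPM in TGF, which were 6, 2 and 0 counts. It had 2.32, 1.89 and 2.99 CPM in PAM and 2.44, 1.93 and 1.74 CPM in PAM_TGF. The TGF libraries lay below all UNT libraries, while PAM and PAM_TGF overlapped. Pam3 raised Cxcl1 by 1.80 on the log2 scale without TGFβ (SE 0.394, 3.49-fold, adjusted p = 0.00156) and by 4.79 with it (SE 0.531, 27.8-fold, adjusted p = 4.84e-08). Without Pam3, TGFβ lowered it by 9.34-fold (log2 fold change -3.22, SE 0.566, adjusted p = 3.26e-05). With Pam3 the TGFβ effect on Cxcl1 was not called (-0.23, SE 0.366, 95% interval -0.99 to 0.52, adjusted p = 0.641). The size of the Cxcl1 changes that start from the TGF group rests on very few counts. Without TGF replicate 1 the Pam3 response with TGFβ was 6.13 and the TGFβ effect without Pam3 was -4.56; without TGF replicate 3 they were 4.21 and -2.64.

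Cxcl10, also known as IP-10 and a marker of interferon signalling, had 2.08, 3.22 and 1.88 CPM in UNT and 0.332, 1.01 and 0.210 CPM in TGF. It had 13.3, 12.5 and 8.99 CPM in PAM, and 262.8, 255.9 and 214.7 CPM in PAM_TGF. No 2 groups overlapped, and every PAM_TGF library was far above every PAM library. The Pam3 response was 2.27 on the log2 scale without TGFβ (SE 0.303, 4.81-fold, adjusted p = 0.000876) and 8.84 with it (SE 0.355, 458-fold, adjusted p = 6.55e-08). By log2 fold change in that comparison Cxcl10 ranked 2, Cxcl3 6, Cxcl2 29 and Cxcl1 87 of the 14749 genes tested. TGFβ lowered Cxcl10 by 4.55-fold without Pam3 (log2 fold change -2.18, SE 0.496, adjusted p = 0.0055) and raised it by 21.0-fold with Pam3 (log2 fold change 4.39, SE 0.249, adjusted p = 6.06e-07). TGF replicate 2, 1 of the 3 libraries that stood apart, held 41 of the group's counts of Cxcl10 against 12 and 8 in the others. Without it the TGFβ effect in unstimulated cells was -3.13 and the Pam3 response with TGFβ was 9.79.

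Cxcl9, the CXCR3 ligand known for its dependence on interferon-γ, had 4, 6 and 0 counts in UNT and 0, 10 and 9 counts in TGF, which were 0 to 0.247 CPM. It had 0.624, 0.398 and 0.222 CPM in PAM (24, 15 and 7 counts) and 1.69, 1.71 and 1.36 CPM in PAM_TGF (58, 64 and 60 counts). The UNT and TGF libraries overlapped, and the PAM_TGF libraries lay above all others. Of the 2847 windows of 50 bases in the Cxcl9 canonical transcript, 20 (0.702%) also occurred in transcripts of 138 other genes. At such low counts, reads from other genes could therefore matter. Cxcl9 rose with Pam3 in the presence of TGFβ by 3.25 on the log2 scale (SE 0.703, 9.53-fold, adjusted p = 0.000566). Its rise of 2.24 without TGFβ (SE 0.788, adjusted p = 0.0495) stood at the threshold and was not called in 8 of 12 fits that left out 1 library. These were PAM replicate 1 (adjusted p = 0.207) and 2 (0.0938), PAM_TGF replicate 1 (0.0736), 2 (0.071) and 3 (0.073), UNT replicate 1 (0.0985) and 3 (0.135), and TGF replicate 3 (0.0551). Without the 3 libraries that stood apart it was 1.30 (adjusted p = 0.35). The call was also lost with a replicate block (0.0569) and with median-of-ratios scaling (0.0509). The TGFβ effect was 1.91 with Pam3 (SE 0.640, 3.76-fold, adjusted p = 0.0169), and the call was lost without PAM replicate 2 (0.0555), PAM replicate 3 (0.0765), PAM_TGF replicate 1 (0.054) or PAM_TGF replicate 2 (0.0543). Without Pam3 the TGFβ effect was 0.90 (SE 0.852, adjusted p = 0.401), and it was -0.048 without the 3 libraries that stood apart.

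Cxcl16, the transmembrane ligand of CXCR6, had 2.97, 5.44 and 3.88 CPM in UNT and 5.51, 6.20 and 5.63 CPM in TGF. It had 15.1, 14.1 and 12.9 CPM in PAM and 32.35, 35.21 and 33.95 CPM in PAM_TGF. The groups did not overlap, although UNT replicate 2 came within 0.1 CPM of the TGF range. Pam3 raised Cxcl16 by 3.41-fold without TGFβ (log2 fold change 1.77, SE 0.138, adjusted p = 1.74e-09) and by 5.85-fold with it (log2 fold change 2.55, SE 0.130, adjusted p = 1.51e-13). TGFβ raised it by 1.40-fold without Pam3 (log2 fold change 0.49, SE 0.146, adjusted p = 0.00751) and by 2.41-fold with Pam3 (log2 fold change 1.27, SE 0.121, adjusted p = 6.81e-09). The smaller of these was not called without the 3 libraries that stood apart (0.41, adjusted p = 0.0812). It was 0.33 without UNT replicate 1 and 0.76 without UNT replicate 2.

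Counted over the members, Pam3 without TGFβ raised 6 of 6, where 9.62% of the 14749 tested genes were called higher, 8.66% lower and 18.3% in either direction. The call for Cxcl9 in that count was lost in the alternatives named above. Pam3 with TGFβ raised 6 of 6, against 20.4% of tested genes called higher, 18.1% lower and 38.5% in all. TGFβ without Pam3 lowered 4 (Cxcl1, Cxcl2, Cxcl3 and Cxcl10) and raised Cxcl16, where 28.1% of tested genes were called lower and 22.9% higher, 51% together. TGFβ with Pam3 raised 5, all but Cxcl1, where 21.5% were called higher, 23.8% lower and 45.3% either way. Leaving out 1 library gave 3 to 5 calls in that comparison, with 3 without PAM replicate 2, PAM_TGF replicate 1 or PAM_TGF replicate 2, where Cxcl2 and Cxcl9 were both lost. The CPM ranges of 6 of 6 members did not overlap in either Pam3 comparison, where this held for 31.4% of tested genes without TGFβ and 50.4% with it. For the TGFβ comparisons it held for all but Cxcl9 without Pam3 and all but Cxcl1 with it, against 56.4% and 55.1% of tested genes. The 6 genes were chosen with earlier results of these data known, so these counts are descriptions. The comparisons share libraries, since each group enters more than 1 of them.

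**Figure D2:**
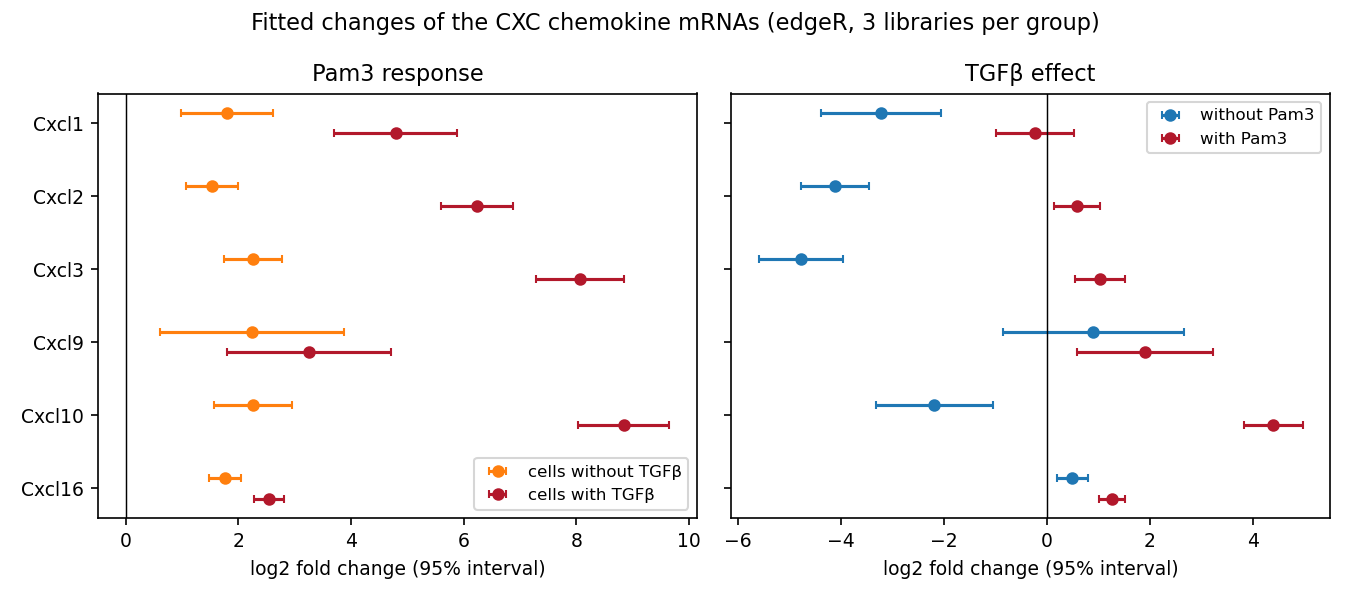
Log2 fold changes of the 6 genes with 95% intervals from edgeR, 3 libraries per group, for the Pam3 response without and with TGFβ and for the TGFβ effect without and with Pam3. Cxcl2, Cxcl3 and Cxcl10 are below 0 for the TGFβ effect without Pam3 and above 0 with it.

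The interaction subtracts the log2 response to Pam3 in cells without TGFβ from that in cells with TGFβ, and tests whether TGFβ changed the size of the response. It was called higher for 5 of 6 members, where 10.3% of tested genes were called higher, 5.67% lower and 15.9% in all. For Cxcl2 it was 4.70 (adjusted p = 1.61e-05, SE 0.354). For Cxcl3 it was 5.81 (adjusted p = 1.75e-05, SE 0.420), and Cxcl10 reached 6.57 (adjusted p = 3.44e-05, SE 0.526). The Cxcl10 interaction was 7.52 without TGF replicate 2 and 6.18 without TGF replicate 3. The interaction of Cxcl1 was 2.99 (SE 0.686, adjusted p = 0.00277), with 2.41 without TGF replicate 3 and 4.33 without TGF replicate 1. Cxcl16 had the smallest called interaction, 0.78 (SE 0.190, adjusted p = 0.00549), which was 0.51 without UNT replicate 2 and 0.94 without UNT replicate 1. For Cxcl9 it was 1.01, with a 95% interval of -1.29 to 3.31 that leaves its direction undetermined (SE 1.11, adjusted p = 0.641).

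The same interaction was made up differently in the CXCR2 ligands and in Cxcl10. For Cxcl2, the TGFβ effect of -4.12 without Pam3 was the larger component beside 0.58 with Pam3, and for Cxcl3 these were -4.78 and 1.03. For Cxcl1 they were -3.22 and -0.23. For Cxcl10 they were -2.18 and 4.39, so that its larger component was the higher level in Pam3-treated cells. For Cxcl16 both TGFβ effects were positive, 0.49 and 1.27. Differences between genes in these effects were not tested.

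Levels of different genes were compared as CPM per kilobase of merged exon length. In untreated cells the order was Cxcl2 (10.03 ± 2.77, SD, n = 3), Cxcl3 (5.49 ± 1.31), Cxcl10 (1.06 ± 0.322), Cxcl16 (0.80 ± 0.243), Cxcl1 (0.363 ± 0.112) and Cxcl9 (0.0275 ± 0.0247). Cxcl10 and Cxcl16 were within their spread of each other. With Pam3 the order was the same, from Cxcl2 (29.2 ± 3.26) and Cxcl3 (26.3 ± 4.83), which were within their spread, through Cxcl10 (5.15 ± 1.021) and Cxcl16 (2.74 ± 0.208) to Cxcl1 (1.27 ± 0.295) and Cxcl9 (0.137 ± 0.0666). With TGFβ alone Cxcl16 led at 1.13 ± 0.0718, ahead of Cxcl2 (0.581 ± 0.122). Below them Cxcl10 (0.23 ± 0.192) and Cxcl3 (0.200 ± 0.0411) were within their spread, as were Cxcl9 (0.0532 ± 0.0461) and Cxcl1 (0.0382 ± 0.0453). With Pam3 and TGFβ the order was Cxcl10 (108.6 ± 11.6), Cxcl3 (53.7 ± 10.7), Cxcl2 (43.7 ± 6.22), Cxcl16 (6.61 ± 0.280), Cxcl1 (1.08 ± 0.194) and Cxcl9 (0.524 ± 0.0661), with Cxcl3 and Cxcl2 within their spread. Dividing by the length of the canonical transcript instead put Cxcl3 above Cxcl2 in UNT and PAM, and Cxcl3 above Cxcl10 and Cxcl1 above Cxcl9 in TGF.

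The make-up of the 6 transcripts shifted with both agents. Their summed level was 17.8 ± 4.55 CPM per kilobase in UNT, 2.23 ± 0.152 in TGF, 64.7 ± 7.48 in PAM and 214.2 ± 25.97 in PAM_TGF (SD, n = 3). The CXCR2 ligands made up 88.01 to 91.5% of that sum in UNT and 85.2 to 90.8% in PAM. In PAM_TGF they made up 42.7 to 48.8%, and the CXCR3 ligands, nearly all Cxcl10, made up 48.6 to 54.04%, against 5.67 to 9.96% in PAM. In TGF, Cxcl16 was the largest share at 49.2 to 52.2%, against 4.04 to 4.88% in UNT, with the share of the CXCR3 ligands running from 6.75 to 22.1% and that of the CXCR2 ligands from 27.5 to 44.05%. The shares of PAM and PAM_TGF libraries did not overlap for either receptor group. With canonical transcript lengths the CXCR2 ligands made up 49.8 to 56.4% of the sum in PAM_TGF and the CXCR3 ligands 41.7 to 47.8%, so which receptor group was larger depended on the length used. It also depended on the library, since with merged exon lengths PAM_TGF replicate 1 had 48.83% for the CXCR2 and 48.56% for the CXCR3 ligands. In TGF these lengths gave 33.2 to 50.5% for the CXCR2 ligands and 42.5 to 47.4% for Cxcl16, so that Cxcl16 was no longer the largest share in every library. The ratio of Cxcl10 to Cxcl2 per kilobase was 0.108 ± 0.0258 in UNT, 0.180 ± 0.0487 in PAM and 2.49 ± 0.200 in PAM_TGF. In TGF it ran from 0.139 to 1.018, with the highest value in TGF replicate 2.

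**Figure D3:**
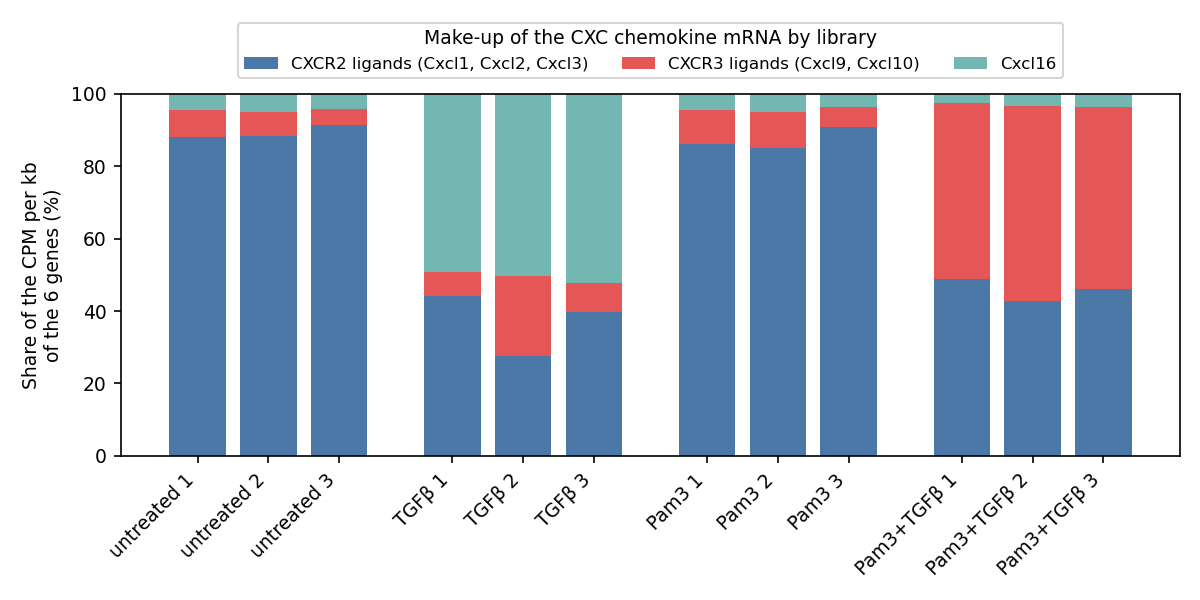
Share in % of the summed CPM per kilobase of merged exons of the 6 genes taken by the CXCR2 ligands (Cxcl1, Cxcl2, Cxcl3), the CXCR3 ligands (Cxcl9, Cxcl10) and Cxcl16, with 1 stacked bar per library. The CXCR2 ligands take 85.2% or more in the UNT and PAM libraries, Cxcl16 takes 49.2% or more in the TGF libraries, and the CXCR3 ligands take 48.6% or more in the PAM_TGF libraries.

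Across the 12 libraries, log2 CPM of Cxcl2 and Cxcl3 had a Pearson r of 0.995, and of Cxcl1 and Cxcl3 0.967. Cxcl16 was closest to Cxcl10 (0.902) and Cxcl9 (0.893), and the lowest value was that of Cxcl1 with Cxcl9 (0.475). The tested genes outside the 6 with the most similar profile were Tmem106a (0.997), Phf11b (0.993) and Clec4e (0.992) for Cxcl2, and Abtb2, Tmem106a and Ets2 (each 0.994) for Cxcl3. For Cxcl1 they were Mthfd2 (0.983), Spred1 (0.978) and Fas (0.977). For Cxcl10 they were Tlr2 (0.994), the receptor of Pam3, the guanylate-binding protein gene Gbp5 (0.993), and Tor3a (0.992). For Cxcl16 they were Alas1 (0.995), Bcl2a1d (0.992) and Fpr2 (0.991), and for the sparse Cxcl9 they were Orai2 (0.927), Snu13 (0.922) and Kalrn (0.916). These values describe 12 libraries in 4 groups, so they mostly reflect the 4 group means.

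Of 9 listed genes of CXC chemokine receptors and related atypical receptors, Cxcr2, Cxcr4 and Ccrl2 passed the filter, and Cxcr1, Cxcr3, Cxcr5, Cxcr6, Ackr1 and Ackr3 had group means of at most 0.259 CPM. Cxcr2, the receptor of Cxcl1, Cxcl2 and Cxcl3, had 234, 260 and 280 counts in TGF (6.74 ± 0.513 CPM) and 36, 36 and 47 in PAM_TGF (1.024 ± 0.0528 CPM). It had 5, 3 and 0 counts in UNT and 0 in all PAM libraries. The TGF libraries were thus highest in Cxcr2 where its ligands were lowest. The TGFβ effect on Cxcr2 without Pam3 was 6.53 on the log2 scale (SE 0.404, adjusted p = 2.15e-12). Its size rests on few UNT counts, with 6.02 without UNT replicate 3 and 7.34 without UNT replicate 1. Pam3 lowered Cxcr2 by 2.71 in cells with TGFβ (adjusted p = 3.80e-08). The Cxcr2 interaction was not called (1.75, adjusted p = 0.378), with all PAM libraries at 0. Cxcr2 is also a neutrophil gene. The 10 listed neutrophil markers, Cxcr2 included, summed to 14.05 to 16.1 CPM in UNT, 11.9 to 12.6 in TGF, 16.8 to 17.4 in PAM and 7.03 to 8.86 in PAM_TGF, with S100a8, at 13.8 in UNT, 3.07 in TGF, 15.4 in PAM and 3.98 in PAM_TGF on average, carrying most of the sum in UNT and PAM. Other markers of the list had higher means with TGFβ, by less than Cxcr2: S100a9 0.254 in UNT, 0.993 in TGF, 0.5001 in PAM and 1.16 in PAM_TGF, Ngp 0.346, 0.623, 0.326 and 0.596, and Ltf 0.361, 0.587, 0.472 and 0.725 CPM. The UNT and TGF libraries overlapped for Ngp and Ltf, as did the PAM and PAM_TGF libraries for Ngp. Camp had 0.00802, 0.174, 0.409 and 0.363 CPM in the same order and Elane at most 0.0351. Ly6g stood at a mean of at most 0.0495 CPM, and Mpo and Retnlg at 0 in all 12 libraries. The part of these markers in the Cxcr2 result was not tested. Ccrl2, which binds the chemoattractant chemerin without signalling, fell by 1.43 with TGFβ alone (SE 0.116, adjusted p = 1.01e-10) and rose by 0.93 with TGFβ under Pam3 (SE 0.0990, adjusted p = 1.61e-08), with an interaction of 2.36 (adjusted p = 1.67e-11). Cxcr4, the receptor of Cxcl12, had an interaction of -0.98 (SE 0.162, adjusted p = 7.36e-05), with 20.5 ± 1.83 CPM in UNT and 4.10 ± 0.622 in PAM_TGF.

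Of the 9 other CXC ligands listed, 4 passed the filter, and they had patterns of their own. Pam3 without TGFβ raised 3 of the 4 and lowered 0, where 9.62% of tested genes were higher and 8.66% lower. These were Cxcl5 (adjusted p = 0.00271), Pf4 (log2 fold change 1.41, SE 0.331, adjusted p = 0.00314; 1.07 and not called, adjusted p = 0.0572, without the 3 libraries that stood apart) and Ppbp (0.59, SE 0.199, adjusted p = 0.039), a call for Ppbp that was lost in 5 of 12 fits without 1 library, namely any of the 3 PAM libraries, UNT replicate 1 or UNT replicate 2. Ppbp, another CXCR2 ligand precursor, had 6.03 ± 0.587 CPM in UNT and 9.09 ± 0.481 in PAM (SD, n = 3), but 0.0494 ± 0.0855 in TGF and 0.123 ± 0.0291 in PAM_TGF. TGFβ lowered Ppbp both without Pam3 (log2 fold change -6.76, adjusted p = 8.12e-14) and with it (-6.19, adjusted p = 2.77e-14), and its interaction was 0.57 (SE 0.724, adjusted p = 0.692). Without TGF replicate 2, which held the 6 counts of Ppbp in that group, the fitted Ppbp interaction was 4.62 (adjusted p = 0.0181) and its TGFβ effect without Pam3 was -10.81, both against a TGF group with 0 counts. Without the 3 libraries that stood apart, TGF replicate 2 among them, the Ppbp interaction was 4.53 (adjusted p = 0.0377). Pf4, platelet factor 4, fell with TGFβ by 2.62 without Pam3 (adjusted p = 7.10e-06) and by 2.76 with it (adjusted p = 5.64e-07), and its interaction was -0.13 (SE 0.601, adjusted p = 0.927). Cxcl5, also a CXCR2 ligand, had 18, 18 and 14 counts in PAM, 1, 1 and 0 in UNT and 0 in all TGF and PAM_TGF libraries. It was at least 5.91-fold higher in PAM than in PAM_TGF, taking 3 counts per library as the floor, and its interaction could not be estimated with 2 groups at 0. Cxcl14, a ligand of constitutive expression in many tissues, had 39.0 ± 3.08 CPM in UNT and 278.4 ± 3.57 in TGF, with 40.8 ± 2.66 in PAM and 229.6 ± 10.6 in PAM_TGF. Its TGFβ effects were 2.84 without Pam3 (adjusted p = 1.70e-22) and 2.49 with it (adjusted p = 2.64e-21), with a small negative interaction (-0.34, adjusted p = 0.00339). Of the 4, 0 had a higher interaction and 1, Cxcl14, a lower one, where 10.3% and 5.67% of all tested genes did.

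**Figure D4:**
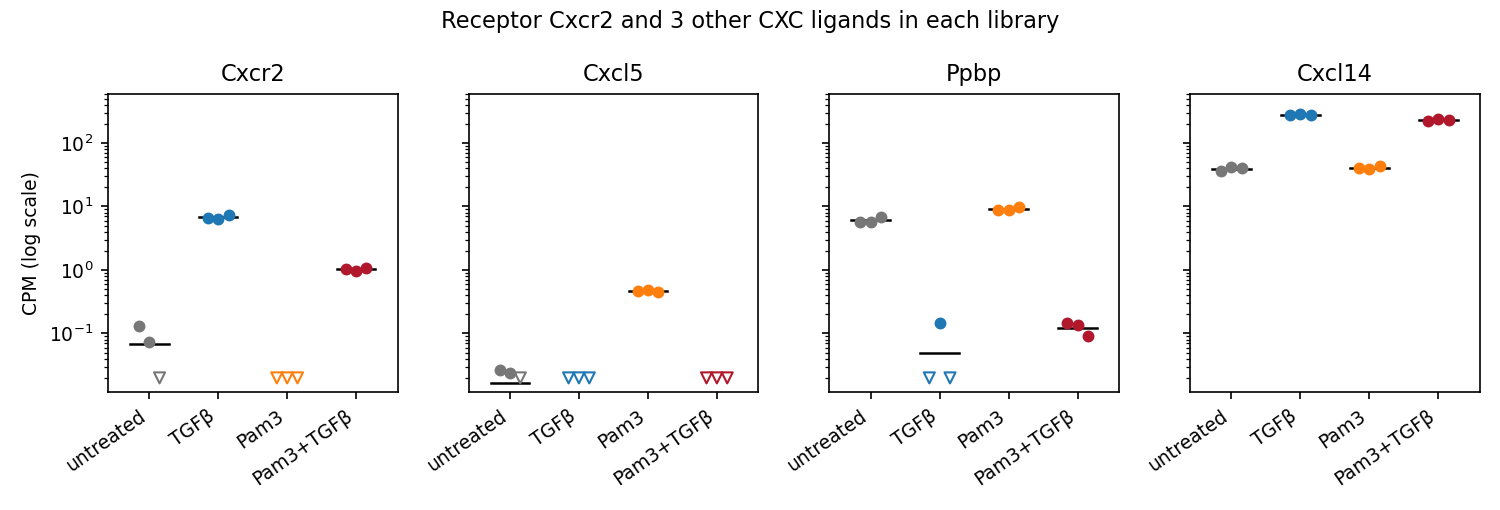
Levels in CPM (log axis) of the receptor Cxcr2 and of the ligands Cxcl5, Ppbp and Cxcl14 in the 4 groups, with 1 point per library and a bar at the mean of 3 libraries; open triangles at the bottom mark libraries with 0 counts. Cxcr2 and Cxcl14 are highest in TGF, while Cxcl5 and Ppbp are highest in PAM and nearly absent with TGFβ.

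Among 15 listed genes of NF-κB subunits, their kinases and feedback regulators, 12 had a higher interaction and 0 a lower one, with a median of 1.30 against 0.0045 over all tested genes, of which 10.3% were called higher and 5.67% lower. TGFβ without Pam3 lowered 9 of the 15 and raised 0 (median -0.48, against -0.00836 over all tested genes, 28.1% of them lower and 22.9% higher). TGFβ with Pam3 raised 12 and lowered 0 (median 0.45, against -0.00171, with 21.5% higher and 23.8% lower). Pam3 without TGFβ raised 8, against 9.62% of tested genes, and lowered Ikbkb, a kinase gene named after its value was seen (-0.16, SE 0.0513, adjusted p = 0.0281). The Ikbkb call was lost without any of the 3 PAM libraries, UNT replicate 1 or UNT replicate 2, and in a fit of the 6 libraries compared (adjusted p = 0.0702). Pam3 with TGFβ raised 13 and lowered 0, against 20.4% of tested genes higher and 18.1% lower. Nfkbie, which encodes the inhibitor IκBε, had 46.6 ± 7.002 CPM in UNT, 10.56 to 11.57 in the TGF libraries, 52.1 ± 0.974 in PAM and 75.5 ± 1.19 in PAM_TGF, with an interaction of 2.62 (SE 0.113, adjusted p = 1.87e-14). Tnfaip3, the ubiquitin-editing inhibitor A20, had an interaction of 2.24 (SE 0.0889, adjusted p = 4.93e-15). Nfkbiz, the nuclear regulator IκBζ, had 1.80 (SE 0.175, adjusted p = 5.30e-08), and Relb, a subunit of the non-canonical pathway, had 1.73 (SE 0.156, adjusted p = 1.23e-07). These genes had the order TGF, UNT, PAM and PAM_TGF in mean CPM, as did Cxcl2, Cxcl3 and Cxcl10. The step from UNT to PAM was called for those chemokines, Tnfaip3 and Nfkbiz. It was not called for Nfkbie (0.16, adjusted p = 0.164) or Relb (0.14, adjusted p = 0.453), whose UNT and PAM libraries overlapped.

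Among 16 listed interferon signalling genes, which bear on Cxcl9 and Cxcl10, 9 had a higher interaction and 1 a lower one, with a median of 0.291 against 0.0045 over all tested genes, of which 10.3% were called higher and 5.67% lower. Pam3 raised 9 and lowered 2 without TGFβ (9.62% and 8.66% of tested genes), and raised 12 and lowered 2 with it (20.4% and 18.1%). TGFβ raised 3 and lowered 8 without Pam3 (22.9% and 28.1%), and raised 8 and lowered 2 with it (21.5% and 23.8%). Irf7, the interferon-induced factor that amplifies type I interferon, had 6.91 ± 2.13 CPM in UNT, 5.53 ± 1.14 in TGF, 50.4 ± 5.82 in PAM and 220.0 ± 1.51 in PAM_TGF. Its interaction was 2.45 (SE 0.280, adjusted p = 0.000256), and its TGFβ effect with Pam3 was 2.12 (SE 0.174, adjusted p = 5.12e-06), while without Pam3 the effect was -0.33 (SE 0.223, adjusted p = 0.261). The interactions were 1.28 for Irf1 (SE 0.0780, adjusted p = 5.90e-12) and 1.15 for Stat2 (SE 0.0677, adjusted p = 3.67e-12), transcription factors of interferon responses.

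**Figure D5:**
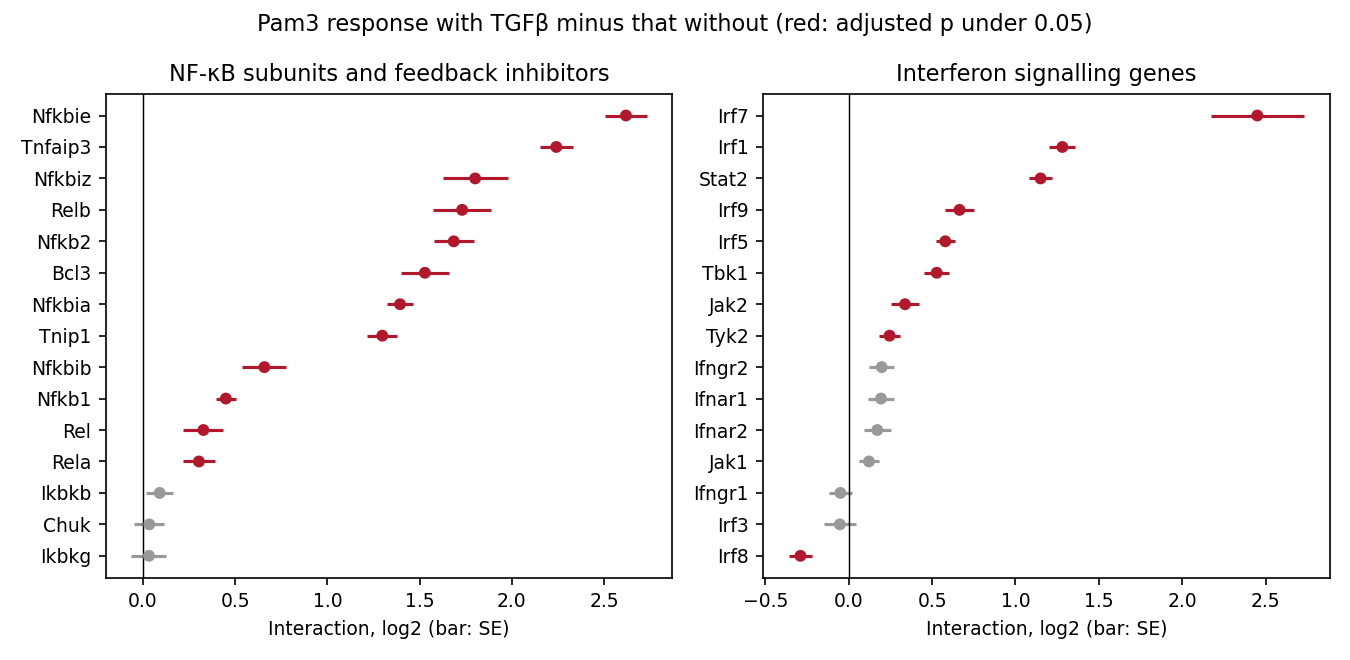
Interaction on the log2 scale (the response to Pam3 in TGFβ-treated cells less that in other cells) with bars of 1 SE for 15 NF-κB genes and 15 of the 16 interferon signalling genes; red points passed an adjusted p under 0.05. The called genes lie mostly above 0 in both panels, led by Nfkbie (2.62) and Irf7 (2.45).

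Of 11 listed regulators of CXCR2 ligand mRNA stability, 2 had a higher and 1 a lower interaction, with a median of -0.0471 against 0.0045 over all tested genes, of which 10.3% were called higher and 5.67% lower. Zfp36, the gene of tristetraprolin, which promotes decay of AU-rich mRNAs, had 67.5 ± 2.16 CPM in UNT, 31.5 ± 0.979 in TGF, 64.7 ± 3.38 in PAM and 46.6 ± 3.27 in PAM_TGF, with an interaction of 0.62 (SE 0.0891, adjusted p = 1.04e-05). TGFβ lowered Zfp36 in both unstimulated cells (-1.10, adjusted p = 1.44e-13) and Pam3-treated cells (-0.47, adjusted p = 6.44e-07). For its relative Zfp36l1 the interaction was 0.70 (SE 0.224, adjusted p = 0.037), a call lost in 10 of 19 alternatives, that without the 3 libraries that stood apart included, and for Zfp36l2 it was -0.36 (SE 0.0764, adjusted p = 0.00142). Traf3ip2, the IL-17 receptor adaptor Act1, had an interaction of -0.84 (SE 0.731, adjusted p = 0.526).

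The proteases that release Cxcl16 were abundant in every group. Adam10 had 465.8 ± 36.5 CPM in UNT, 540.5 ± 12.7 in TGF, 428.0 ± 26.3 in PAM and 406.1 ± 7.96 in PAM_TGF, with an interaction of -0.29 (SE 0.0784, adjusted p = 0.0107). Adam17 had an interaction of 0.26 (SE 0.0696, adjusted p = 0.0097), a call lost in 3 of 19 alternatives. Its partners Rhbdf2 and Rhbdf1 had 0.23 (SE 0.0686, adjusted p = 0.0229, lost in 9 of 19, that without those 3 libraries included) and -0.12 (SE 0.342, adjusted p = 0.876). Timp3, an inhibitor of these proteases, had 0 counts in all 12 libraries. Of the 5 listed, 4 were tested, 2 with a higher and 1 with a lower interaction, against 10.3% and 5.67% of all tested genes.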

How the data were processed

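Per the labels' protocols, mRNA libraries were made with a stranded kit and sequenced as paired ends. Per the submitters' processing notes, the tools the authors used were FastQC 0.11.7 for read quality, Bowtie2 2.4.1 for alignment against GRCm39, and featureCounts (Subread 2.0.0) for counting. The annotation, strand setting and handling of multiply aligned reads are not given in the sources used here. Bowtie2 does not split reads over introns, so reads across exon junctions can be lost. The table used holds raw counts per gene symbol, deposited by the authors; the table of normalized signal they deposited was not used here. The reads carry no molecular identifiers, so the floor of 3 counts covers counting error only. A chi-square test of counts found no 2 libraries of a group alike (9.99 to 220 for each degree of freedom).

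Genes passing filterByExpr at a minimum count of 10 were fitted in edgeR 4.0.16 (R 4.3.3) with TMM scaling, the robust quasi-likelihood test, 4 group means over all 12 libraries and no covariate. The SE is the size of the log2 fold change divided by the square root of F. Adjusted p-values are Benjamini-Hochberg over all 14749 tested genes in each comparison, called under 0.05, and apply to every gene named. The procedure was tested on simulated counts. Motifs were searched in the GRCm39 sequence at GENCODE M39 canonical starts, which lie within 28 bases of the RefSeq starts of 5 members.

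The members, the pathway lists and the naming rule were chosen with earlier results of these data known. The rule names, from each list, up to 4 genes called in any comparison with the largest interaction, members not detected, and the 3 genes most correlated with each chemokine; 1 gene it picks is not reported here. Alternatives were median-of-ratios and upper-quartile scaling, DESeq2 1.42.0, a minimum of 10 counts in all libraries, testing unfiltered genes, a block for the replicate number, fits of the 6 libraries compared, canonical transcript lengths, and leaving out each library; leaving out the 3 libraries that stood apart was added after the data were seen.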

Additional observations from a re-analysis of the deposited data

Results flagged for a closer look

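By the interaction test of edgeR, the response to Pam3 was of a different size when TGFβ was present for 5 of the 6 chemokines. The difference on the log2 scale was 2.99 for Cxcl1 (adjusted p = 0.00277), 4.70 for Cxcl2 (adjusted p = 1.61e-05), 5.81 for Cxcl3 (adjusted p = 1.75e-05), 6.57 for Cxcl10 (adjusted p = 3.44e-05) and 0.78 for Cxcl16 (adjusted p = 0.00549).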

How the results depend on the processing

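The counts of members called were 6, 6, 5, 5 and 5 for Pam3 without TGFβ, Pam3 with TGFβ, TGFβ without Pam3, TGFβ with Pam3 and the interaction. Requiring at least 10 counts in every library left 3 members to test, Cxcl2, Cxcl3 and Cxcl16, and 3 of 3 were called in each comparison. Cxcl1, Cxcl9 and Cxcl10 were not tested under that setting. Leaving out 1 library gave 3 to 5 calls for TGFβ with Pam3, 5 to 6 for Pam3 without TGFβ, and the same counts for the others. No clear pairing by replicate number was seen (r of -0.174 to 0.3 over 18 same-numbered pairs, 7 of them over 0.1, and 5 of 12 libraries closest to their own number). A pairing is not excluded, since the libraries that stood apart also enter these values. With a replicate block the counts were 5, 6, 5, 4 and 5, with Cxcl9 lost for Pam3 without TGFβ (2.29, adjusted p = 0.0569) and Cxcl2 for TGFβ with Pam3 (0.59, adjusted p = 0.0736). Without the 3 libraries that stood apart the counts were 5, 6, 4, 4 and 5, and the uncalled TGFβ effect on Cxcl9 without Pam3 turned to -0.048. Without a filter, Cxcl2 for TGFβ with Pam3 had an adjusted p of 0.0606, and with median-of-ratios scaling Cxcl9 for Pam3 without TGFβ had 0.0509. Uncalled interactions changed sign for Pf4 (-0.57 to 0.25 over the alternatives), Ppbp (-0.0035 without TGF replicate 3, to 4.62 without TGF replicate 2, where it was called) and Rhbdf1 (-0.30 to 0.077 without 1 library, 0.13 without those 3). Under upper-quartile scaling the median log2 fold change of all genes for Pam3 with TGFβ was -0.08, against -0.0185, and there were 2477 higher and 3489 lower calls, against 3008 and 2670, and 1255 and 1097 for the interaction, against 1516 and 836; for Pam3 without TGFβ they were 1299 and 1495, against 1419 and 1278. No called value of a member changed sign under any alternative run, the scalings included. Apart from the smaller numbers of genes or libraries, the causes of these changes were not tested. Depth limits Cxcl1 in TGF, Cxcl9 in UNT, TGF and PAM, and Cxcl10 in TGF, the base of its Pam3 response with TGFβ: at least 1 library of each held 10 counts or fewer.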

Other observations

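Genes for proteases and proteoglycans that cut or bind CXC chemokines were mostly lower with TGFβ. Of 7 listed, 6 were tested, and TGFβ without Pam3 lowered 5 and raised 1 (28.1% and 22.9% of all tested genes), while 4 had a higher and 1 a lower interaction (10.3% and 5.67%). The gene raised was Sdc4, the proteoglycan syndecan-4, named after its values were seen, with a TGFβ effect of 0.30 without Pam3 (SE 0.0854, adjusted p = 0.00459, not called without the 3 libraries that stood apart) and 1.09 with it (SE 0.0829, adjusted p = 1.25e-10). Mmp12, the macrophage elastase, had 3571 ± 139.7 CPM in UNT and 167.4 ± 15.7 in TGF (SD, n = 3), with 3734 ± 33.2 in PAM and 593.0 ± 54.3 in PAM_TGF, and an interaction of 1.76 (SE 0.0947, adjusted p = 1.11e-12). Mmp14, a membrane-bound metalloprotease, fell by 2.81 (log2) under TGFβ alone (adjusted p = 5.24e-05), and its interaction was 2.71 (SE 0.390, adjusted p = 0.00124). Sdc1, which encodes syndecan-1, had an interaction of 2.23 (SE 0.252, adjusted p = 2.32e-06), with 10.1 ± 2.66 CPM in PAM_TGF against 30.4 ± 1.37 in PAM. Mmp9 had 52, 74 and 63 counts in PAM, 5, 30 and 20 in UNT and 0 in all TGF and PAM_TGF libraries, and its interaction could not be estimated.

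Cxcl11, the other CXCR3 ligand, did not pass the filter on low counts; it had 7, 3 and 7 counts in the PAM_TGF libraries and 0 in the other 9 libraries. Cxcl13, Cxcl15 and Cxcl17 had 0 counts in all 12 libraries, as did the receptor Ackr1, and Cxcl12 had 5 counts in all.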
